A study of Mus musculus with 8 samples.

Results

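The genes of the cytosolic ribosome and the proteasome were followed through 2 lists of H3K27-me3-enriched regions from mouse liver. Members were all protein-coding genes on chromosomes 1 to 19 of mm10 (GENCODE names) whose symbol starts with Rpl, Rps, Psma, Psmb, Psmc or Psmd followed by a digit. The rule found 131 of 20720 protein-coding genes. They comprised 40 large subunit and 29 small subunit ribosomal proteins and 14 constitutive subunits of the 20S core particle. There were also 6 ATPases of the 19S regulatory particle and 13 Psmd genes, grouped by name alone as its non-ATPase subunits. A further 13 genes were paralogs, several of them tissue-restricted or induced. The names also took in 8 genes whose symbol starts with Rps6k, 2 binding proteins (Rps19bp1 and Psmc3ip) and 6 entries with pseudogene names. The Rps6k genes are called S6 kinases here by their family name, and not all of them are established kinases of ribosomal protein S6. The first 5 of these classes, the 102 cytosolic ribosomal protein and constitutive proteasome genes, are called the constitutive genes here.

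The lists came from male JMJD3-floxed mice on a C57BL/6 background. At 8 weeks of age the mice received AAV-TBG-Cre, in which the TBG promoter directs Cre to hepatocytes, or the control virus AAV-GFP. They were fasted for 16 h at 12 weeks after injection. Floxed alleles and fasting were shared by both groups, so the contrast was Cre, which downregulates JMJD3, against GFP. JMJD3 is a demethylase of H3K27-me3. No group had Cre without floxed alleles, so Cre itself and downregulation of JMJD3 cannot be told apart. No fed liver was included. Each virus had 2 H3K27-me3 libraries and 2 input libraries, and the authors merged both replicates into 1 list per virus. The sample labels speak of primary liver cells, whereas the protocol describes minced liver, so chromatin of other liver cells may be included.

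H3K27-me3 is deposited by Polycomb repressive complex 2 and marks promoters that are kept silent, many of them CpG-rich and developmental. Ribosomal proteins and the constitutive proteasome subunits build and degrade the proteins of every cell, and their promoters are typically CpG-rich and active. Several paralogs replace one constitutive subunit in 1 tissue or under interferon.

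Promoter sequences are shown for 2 neighbouring pairs of members, because in each pair the paralog carried an AAV-Cre region that was also the nearest region of its constitutive neighbour. Psmb5 encodes the chymotrypsin-like subunit of the core particle and Psmb11 its thymic counterpart. Rps2 encodes a small subunit protein, and its neighbour Rpl3l is the muscle form of the large subunit protein Rpl3. The 270 bases from 250 before to 20 after each RefSeq start (GRCm38.p6) are given 5′ to 3′ on the gene's strand, with capitals marking matches to the strings searched below. Psmb5 lies at chr14:54617976-54618245 (minus strand), Psmb11 at chr14:54625060-54625329 (plus), Rps2 at chr17:24719813-24720082 (plus) and Rpl3l at chr17:24727576-24727845 (plus).
Psmb5: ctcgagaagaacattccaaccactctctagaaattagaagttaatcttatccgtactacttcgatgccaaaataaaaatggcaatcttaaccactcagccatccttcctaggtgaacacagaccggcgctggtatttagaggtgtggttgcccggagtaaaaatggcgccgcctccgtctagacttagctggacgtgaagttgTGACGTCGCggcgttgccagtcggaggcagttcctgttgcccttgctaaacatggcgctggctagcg
Psmb11: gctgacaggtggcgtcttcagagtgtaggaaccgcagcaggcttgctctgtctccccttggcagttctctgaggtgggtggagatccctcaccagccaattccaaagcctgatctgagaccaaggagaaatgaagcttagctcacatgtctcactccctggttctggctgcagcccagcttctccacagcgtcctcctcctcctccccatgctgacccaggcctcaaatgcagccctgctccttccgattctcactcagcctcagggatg
Rps2: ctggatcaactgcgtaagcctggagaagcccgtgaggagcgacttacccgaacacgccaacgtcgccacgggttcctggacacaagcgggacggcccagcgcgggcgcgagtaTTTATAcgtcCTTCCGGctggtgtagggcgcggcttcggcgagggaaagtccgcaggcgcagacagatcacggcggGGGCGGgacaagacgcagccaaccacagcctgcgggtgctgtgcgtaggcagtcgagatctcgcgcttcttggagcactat
Rpl3l: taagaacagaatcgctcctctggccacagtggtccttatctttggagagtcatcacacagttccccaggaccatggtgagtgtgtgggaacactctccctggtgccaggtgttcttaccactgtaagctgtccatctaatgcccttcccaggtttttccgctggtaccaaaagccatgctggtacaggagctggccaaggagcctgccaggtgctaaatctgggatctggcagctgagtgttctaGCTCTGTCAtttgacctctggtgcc
The Psmb5 stretch held 17 CpG dinucleotides at 50.4% GC, against 4 in the Psmb11 stretch at 57.8% GC. The Rps2 stretch held 31 CpG at 64.4% GC, against 2 at 53.3% GC for Rpl3l. CpG dinucleotides were thus more numerous in the constitutive gene of both pairs, whereas GC content was higher in Psmb11 than in Psmb5. The capitals mark 1 antioxidant response type match in Psmb5 and in Rpl3l, and a TATA, an ETS and an Sp match in Rps2. None of the strings occurred in the Psmb11 stretch.

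RefSeq promoters of 300 bases (250 before to 50 after the start) were matched for 98 members and 15695 of all genes. Strings were searched on both strands, and none of them contains another. CCGGAAG, the core of ETS factors such as GABP, occurred in 34.7% of members and 12.6% of all promoters, with 40.0% of the 50 matched constitutive ribosomal protein genes and 37.0% of the 27 matched constitutive proteasome genes. CTCGCGAG, a palindrome of CpG-rich promoters, occurred in 14.0% of those ribosomal protein genes, 3.70% of the proteasome genes and 1.27% of all promoters. A start at a C followed by at least 5 pyrimidines, the form of a terminal oligopyrimidine transcript, was allowed to lie within 5 bases of the annotated start. It was found in 44.0% of constitutive ribosomal protein genes, 11.1% of proteasome genes and 10.2% of all genes. Among the 6690 promoters with a CpG-rich start these shares were 19.2% for CCGGAAG, 2.53% for CTCGCGAG and 9.99% for the pyrimidine start. GGGCGG (Sp factors) was present in 59.2% of members against 49.2% of all promoters, TGACNNNGC (antioxidant response type) in 19.4% against 13.4%, AAGATGGCG (YY1) in 6.12% against 2.09%, GCATGCGC (NRF1) in 6.12% against 3.81% and TATAAA in 7.14% against 13%. Beside CpG-rich promoters, with GGGCGG in 77.6%, TATAAA in 4.74% and GCATGCGC in 6.32%, the members' GGGCGG share was lower, their TATAAA share higher and their GCATGCGC share nearly equal. Over the 1000 bases centred on the start, 85 members (64.9%) were CpG-rich, defined as at least 55% GC with an observed to expected CpG ratio of at least 0.6, against 41.1% of all genes. The share was 33 of 40 for the large subunit and 3 of 13 for the paralogs, and no entry with a pseudogene name was CpG-rich.

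A region is an interval in which the immunoprecipitated signal exceeded input, and its fold enrichment and q-value are those of the authors' peak caller. The AAV-Cre list held 59267 regions with a median width of 753 bp and covered 2.98% of chromosomes 1 to 19. The AAV-GFP list held 34586 regions with a median width of 231 bp and covered 0.602%. A q-value of 0.05 or lower was reached by 88.6% of AAV-Cre and 46.8% of AAV-GFP regions. The narrowest region was 300 bp in one and 120 bp in the other. Read depth is not recorded in the lists, and their difference in number and width touches every comparison of the viruses below; its part in those comparisons was not tested. With 1 list per virus there is no replicate error and no test between viruses, and Wilson 95% intervals cover counting error only.

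Ribosomal protein and proteasome promoters were nearly free of H3K27-me3 regions in both groups. In the AAV-Cre list 6 of 131 members (4.58%, interval 2.12 to 9.63) had a region within 1 kb of a start site, against 24.6% of all protein-coding genes. In the AAV-GFP list 1 member (0.763%, interval 0.135 to 4.20) had one, against 17.1% of all genes. Restricting the comparison to CpG-rich starts left the shortfall in place, since genes with a CpG-rich start were marked at 24.9% and 20.9%, and the 85 CpG-rich members at 4.71% (interval 1.85 to 11.5) and 1.18% (interval 0.208 to 6.37). Among the 102 constitutive genes only Rpl26 and Rpl38 had a region within 1 kb, both in the AAV-Cre list (1.96%, interval 0.539 to 6.87), and 0 of 102 had one in the AAV-GFP list, which allows a share of up to 3.63%. All 39 Hox genes, classical Polycomb targets, had a region within 1 kb in both lists.

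At 15 kb the share of members with a region was near that of other genes when all listed regions were counted. A region lay within 15 kb of 59 members in the AAV-Cre list (45.0%, interval 36.8 to 53.6), against 43.1% of all genes, and of 31 members in the AAV-GFP list (23.7%, interval 17.2 to 31.6), against 29% of all genes. Genes with a CpG-rich start gave 44.6% and 31.1%, and the 85 CpG-rich members 43.5% and 23.5%. The background lay inside the members' interval in each of these comparisons. With regions at a q-value of 0.05 or lower it did not in the AAV-GFP list, where 14.5% of members (interval 9.49 to 21.5) stood against 22.3% of all genes. At 0.01 or lower it lay inside again, with the same 14.5% of members against 20.1% of all genes. Of the members with a region within 15 kb, 10.2% (AAV-Cre) and 3.23% (AAV-GFP) had it within 1 kb, whereas the figures for all genes were 57.2% and 59.1%. The nearest region lay at a median of 19052 bp from a member's start in the AAV-Cre list (quartiles 7323 and 61397.5 bp) and 41708 bp in the AAV-GFP list, against 23899 and 53778 bp for all genes. The lower quartile showed the difference most plainly, since it was 1153 bp for all genes in the AAV-Cre list.

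**Figure D1:**
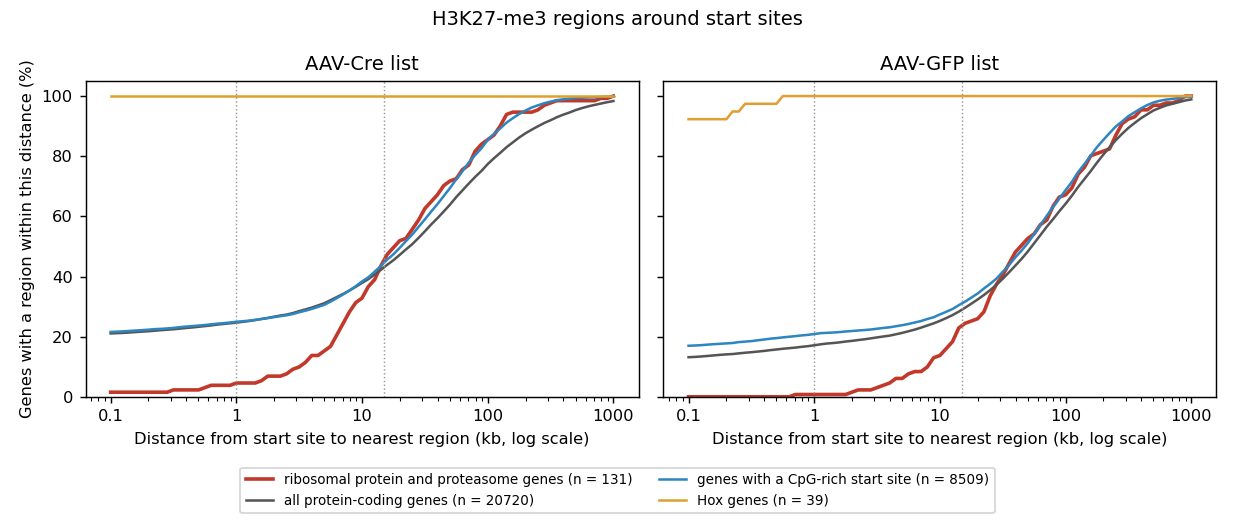
Share of genes (y axis, percent) whose nearest region lies within a given distance of a start site (x axis, kb, log scale), for the 131 ribosomal protein and proteasome genes, all 20720 protein-coding genes, 8509 genes with a CpG-rich start and 39 Hox genes, with dotted lines at 1 and 15 kb. The member curve stays near 0 up to 1 kb (4.58% and 0.763%) and meets the curve of all genes near 15 kb in the AAV-Cre list (45.0% against 43.1%), whereas in the AAV-GFP list it is still below at 15 kb (23.7% against 29%) and meets it only farther out.

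Other broadly expressed families had few regions at their starts as well. None of the 78 mitochondrial ribosomal protein genes had a region within 1 kb in either list (interval 0 to 4.69%), and 27 (34.6%) and 9 (11.5%, interval 6.19 to 20.5) had one within 15 kb in the AAV-Cre and AAV-GFP lists, the latter below the 29% of all genes. Complex I genes were taken by name (Nduf, then a, b, c, s or v, then a digit), so not each need encode a subunit of that complex. Of these 35 genes, 1 (Ndufa4l2, a hypoxia-inducible paralog) had a region within 1 kb in the AAV-Cre list and 0 in the AAV-GFP list. Within 15 kb, 10 and 6 had one. For 10 hepatocyte genes, including Alb, Ttr and Apoa1, no region lay within 1 kb in either list, and Cyp2e1 alone had one within 15 kb, at 1268 and 3547 bp.

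**Figure D2:**
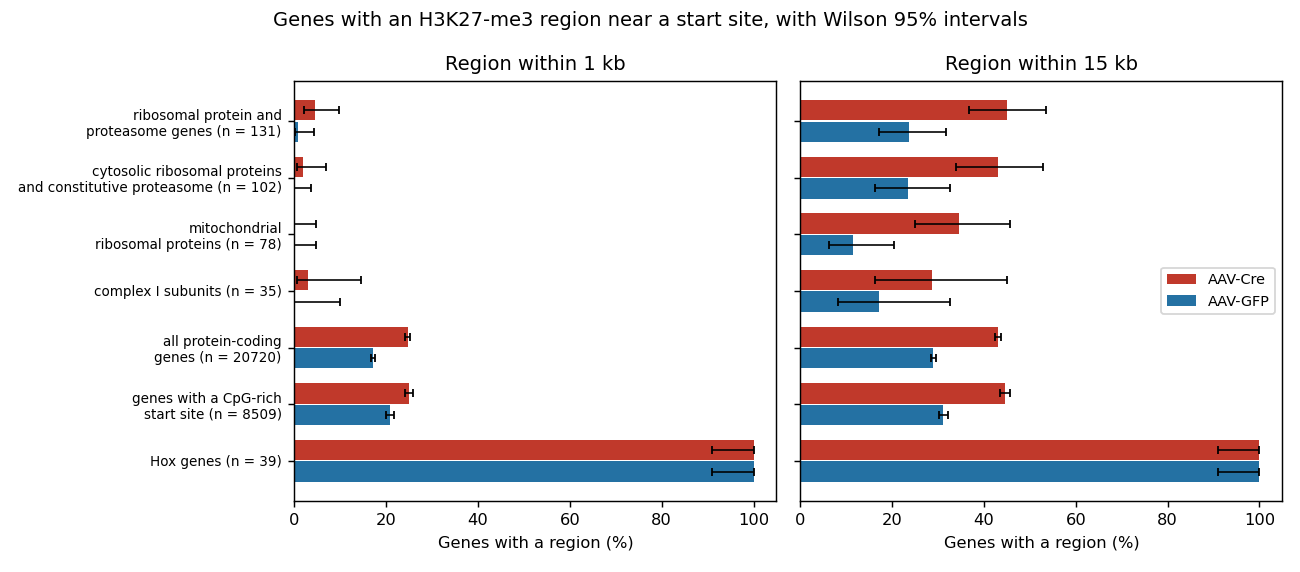
Share of genes with a region within 1 kb (left) and 15 kb (right) of a start site, by gene family, in the AAV-Cre and AAV-GFP lists, with Wilson 95% intervals as error bars. At 1 kb the constitutive genes and the mitochondrial and complex I families lie between 0 and 2.86% while all protein-coding genes reach 24.6% and 17.1%. At 15 kb the all-gene bars lie inside the members' intervals.

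The gap around member starts extended to several kilobases. Within 1 kb of the principal start, 1.50% of bases lay in AAV-Cre regions for members and 16.6% for all genes, and the AAV-GFP figures were 0.140% and 7.93%. Between 1 and 5 kb upstream members had 2.83% of bases in AAV-Cre regions against 8.25%, and between 1 and 5 kb downstream 1.89% against 9.69%. In the AAV-GFP list these values were 0.107% against 2.22% and 0.654% against 3.14%. Between 5 and 15 kb the AAV-Cre values were 6.71% against 5.90% upstream and 3.71% against 5.18% downstream, so the members exceeded all genes only on the upstream side. The AAV-GFP values there were nearly equal upstream, at 1.33% against 1.31%, and 1.07% against 1.25% downstream. Hox genes had 99.8% of the bases within 1 kb in AAV-Cre regions and 82.3% in AAV-GFP regions. Each profile counts bases of several members that share a neighbourhood more than once.

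**Figure D3:**
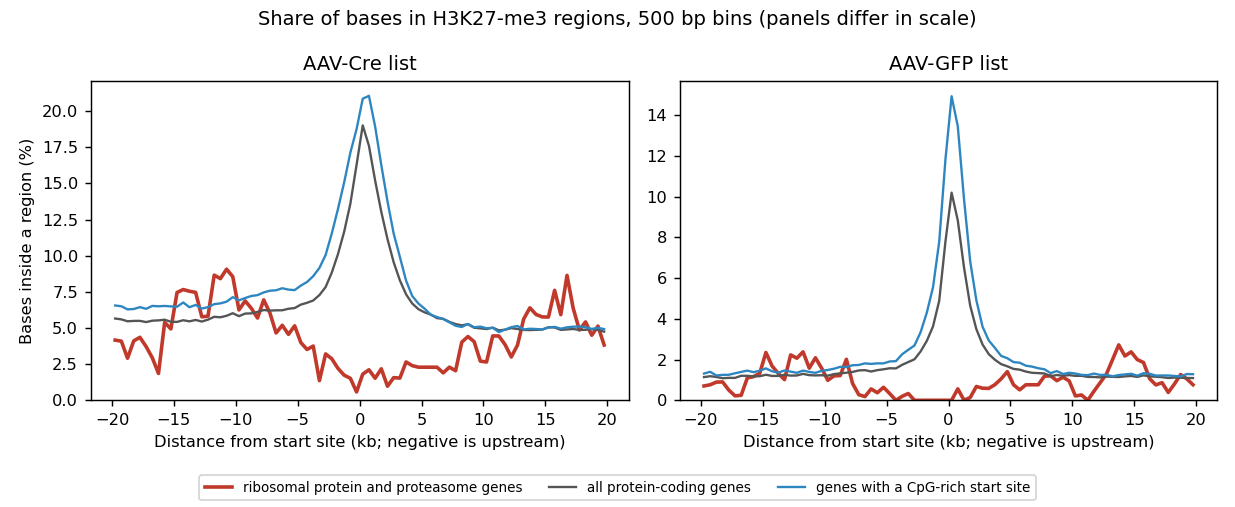
Percent of bases inside a region (y axis, different scales in the panels) in 500 bp bins from 20 kb upstream to 20 kb downstream of the principal start site (x axis, kb). All genes and genes with a CpG-rich start peak at the start, whereas members lie low there, at 1.50% (AAV-Cre) and 0.140% (AAV-GFP) of the bases within 1 kb, and in the AAV-GFP list stay as low, at 0.107%, from 1 to 5 kb upstream.

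Each of the 6 members with a region within 1 kb is described here. Psmb11, the thymic subunit, was the only member whose start lay inside a region. That AAV-Cre region spanned chr14:54624930-54627448 (2519 bp, coding exon and untranslated sequence) with a fold enrichment of 3.65 and q = 5.9e-06, and the nearest AAV-GFP region lay 48448 bp away. Rps6ka2, which encodes the S6 kinase family member RSK3, had an AAV-Cre region 22 bp downstream of its start at chr17:7170137-7172082 (1946 bp, fold 6.13, q = 8.6e-17). It was also the member with the nearest AAV-GFP region, 632 bp downstream at chr17:7170747-7171119 (373 bp, fold 1.95, q = 0.18), which lay inside the AAV-Cre region but missed a q-value of 0.05. Rpl3l had a region 292 bp into the gene over a coding exon at chr17:24728112-24728700 (589 bp, fold 2.56, q = 0.023) in the AAV-Cre list, and its nearest AAV-GFP region lay at 37490 bp.

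Rpl26 and Rpl38, both large subunit proteins, were the constitutive genes among the 6. The Rpl26 region lay 525 bp upstream in intergenic sequence at chr11:68900594-68901058 (465 bp, fold 2.77, q = 0.0042). Rpl38, whose loss in the mouse alters the translation of Hox mRNAs, had a region 962 bp upstream of its nearest start at chr11:114665490-114667562 (2073 bp, fold 3.12, q = 5.5e-05). The start of the pseudogene Gm11689 was closer to that region, at 882 bp, and a further AAV-Cre region upstream covered the pseudogene. The nearest AAV-GFP region of Rpl38 lay at 11012 bp. Rps6ka4, which encodes the kinase MSK2, had a region 596 bp upstream at chr19:6841232-6841738 (507 bp, fold 2.38) with q = 0.057, and an AAV-GFP region at 3005 bp (fold 2.12, q = 0.75). Of the 6, Rpl26, Rpl38, Rps6ka2 and Rps6ka4 had CpG-rich starts, and Psmb11 and Rpl3l did not.

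**Figure D4:**
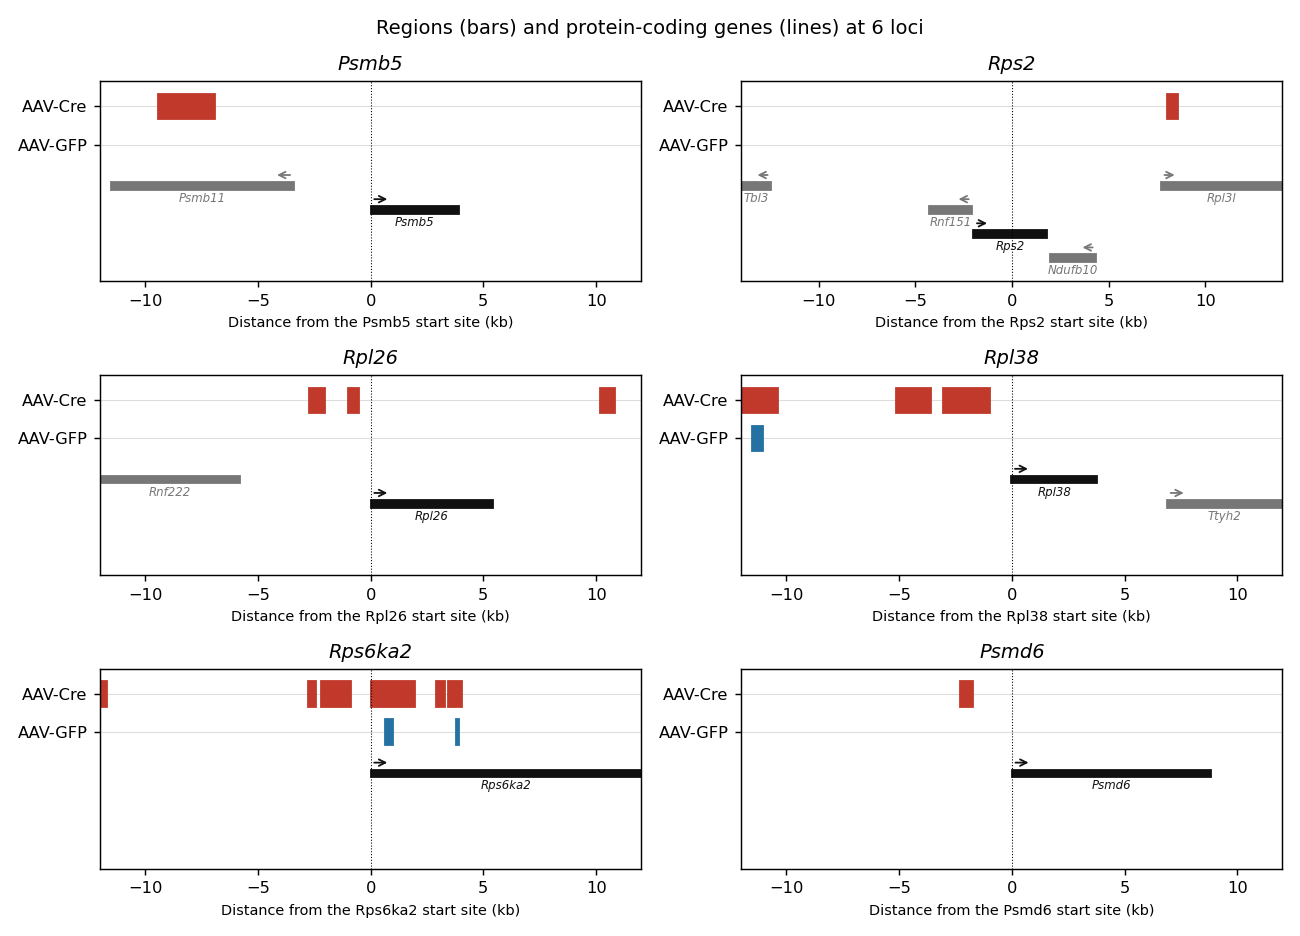
Regions of the AAV-Cre and AAV-GFP lists (bars) and protein-coding gene records (lines, arrow at the 5′ end of the record) around 6 members, by distance from the member's principal start site (x axis, kb, member drawn left to right). The Psmb5 start has no region of its own and shares the 2519 bp region at Psmb11, the Rps2 start is free and the 589 bp region lies in Rpl3l, and only Rps6ka2 and Rpl38 have AAV-GFP regions in the window drawn.

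By class, a region lay within 15 kb in the AAV-Cre and AAV-GFP lists of 21 and 13 of 40 large subunit genes, 9 and 5 of 29 small subunit genes, 6 and 2 of 14 core particle genes, 2 and 0 of 6 ATPase genes, and 6 and 4 of 13 non-ATPase genes. The counts were 5 and 1 of 13 for the paralogs, 6 and 4 of 8 for the S6 kinases, 1 and 0 of 2 for the binding proteins, and 3 and 2 of 6 for the entries with pseudogene names. Every class had at least as many members with an AAV-Cre as with an AAV-GFP region. Over all genes the shares were 43.1% and 29%, so this direction was not particular to the classes. No order of the classes is read from these counts.

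**Figure D5:**
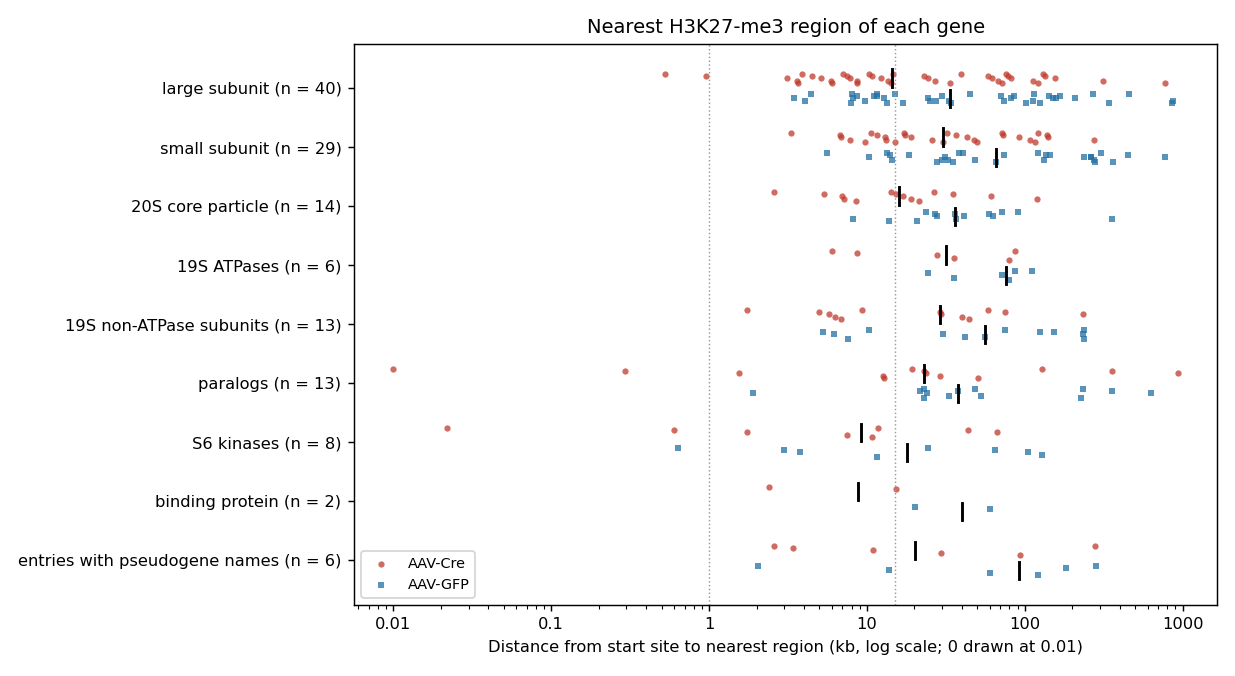
Distance from each member's start to its nearest region (x axis, kb, log scale, 0 drawn at 0.01) in the AAV-Cre (circles) and AAV-GFP (squares) lists, by class; black ticks are class medians and dotted lines mark 1 and 15 kb. The points left of 1 kb are the 6 named AAV-Cre members and Rps6ka2 in the AAV-GFP list.

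Where a region lay within 15 kb of a member, it often belonged to a neighbour. Of the 53 members whose nearest AAV-Cre region was 1 to 15 kb away, the region was closer to the start of another protein-coding gene for 31 (58.5%), against 36.3% of the 3819 genes of the whole annotation in that range. In the AAV-GFP list this held for 17 of 30 members (56.7%) against 41.1% of all genes in that range. Genes with a CpG-rich start gave 37.8% (AAV-Cre) and 46.3% (AAV-GFP). The shares of this paragraph carry no intervals, and the AAV-GFP share of members rests on few genes. The region lay within 1 kb of another gene's start for 20 of the 53 (37.7% against 17.4%). Members also have closer neighbours, since 61.1% had the start of another protein-coding gene within 15 kb against 41.2% of all genes, and the part of gene density in the difference was not tested. Among genes whose nearest AAV-Cre region was 1 to 15 kb away, it was upstream for 66.0% of the 53 members. The figures in that range were 66.9% for all genes and 80.3% for genes with a CpG-rich start.

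Several regions near ribosomal protein genes, some of them broad, covered a neighbour's start. The nearest AAV-Cre region of Rps15 was 3321 bp away, covered the start of Apc2 and reached 5643 bp at a fold of 12.4. The AAV-GFP list had 2085 bp at a fold of 4.02 there, inside an Apc2 intron. Rpl19 lay 3885 bp from a region over the start of the calcium channel subunit gene Cacnb1 (fold 5.95), and in the AAV-GFP list 4425 bp from a 216 bp region (fold 2.06, q = 0.27). Rpl23a lay 5127 bp from a region over the start of Rab34 (776 bp, fold 2.66). At greater distance, Rpl22 lay 7052 bp from a 7861 bp region over Rnf207 (fold 9.58), and Rpl28 10377 bp from a 7553 bp region over the cytokine gene Il11 (fold 12.96). Folds were computed within each list and are not compared between the viruses.

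For proteasome genes too, several nearest regions lay at a neighbour. Psmb3, a core particle subunit, lay 2573 bp from a 537 bp AAV-Cre region over the start of Pcgf2 (fold 2.51, q = 0.023), which encodes a Polycomb ring finger protein. Psmd8, a lid subunit of the 19S particle, lay 6810 bp from a region at Ggn (2634 bp, fold 7.57), and the AAV-GFP list held a region there at 7564 bp (852 bp, fold 2.84, q = 0.00051). Psmb5 lay 6908 bp from the Psmb11 region described above and had no AAV-GFP region within 15 kb. Psmd4, the ubiquitin receptor subunit, had an intergenic region 4988 bp upstream (1092 bp, fold 3.14) and Psmd2 one 5762 bp upstream in Ece2 (1299 bp, fold 3.99). Psma6 had its nearest region in its own body, in an intron 5375 bp downstream of the start (1472 bp, fold 3.25).

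Several of the other nearest regions had no protein-coding start within 1 kb. Psmd6, a lid subunit, had an intergenic AAV-Cre region 1731 bp upstream (579 bp, fold 2.50, q = 0.018), 277 bp from the pseudogene Gm48797. Rpl17 had one 3102 bp upstream (1318 bp, fold 4.82) that overlapped AAV-GFP regions, the nearest at 3447 bp (194 bp, fold 1.80). Regions also lay upstream of Rpl34 (4502 bp), Rpl27a (5966 bp), Rpl37a (6038 bp), Psmd14 (6302 bp) and the ATPase gene Psmc1 (6000 bp). Rpl14 had a region 3685 bp upstream in an untranslated exon of Entpd3, and Rps27a one 6849 bp upstream in Clhc1. Rps14 had a region 6720 bp downstream. From Rpl34 to Rps14 the folds lay between 2.24 and 3.41 and the widths between 308 and 1246 bp, beside a median fold of 2.90 over the whole list.

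Of the 13 paralogs, 5 had an AAV-Cre region within 15 kb (38.5%, interval 17.7 to 64.5) and 2 within 1 kb (15.4%, interval 4.33 to 42.2). Both intervals include the shares of all genes given above. Psmb8, Psmb9 and Psmb10, the interferon-induced subunits of the immunoproteasome, had their nearest AAV-Cre regions at 29206, 19180 and 50519 bp and AAV-GFP regions at 33051, 23025 and 228166 bp. The testis genes Psma8 and Rpl10l had AAV-Cre regions at 354498 and 937321 bp. Rpl39l lay 22842 bp, Rps27l 23751 bp and Rpl7l1 129465 bp from one. Rpl36al and Rpl22l1 had regions at 12682 and 12859 bp, in Lrr1 and Eif5a2. Rps27rt lay 1542 bp from a 4881 bp AAV-Cre region over the start of Osbpl10 (fold 8.00) and 1912 bp from a 126 bp AAV-GFP region (fold 2.14, q = 0.98). The paralogs with a region within 1 kb were Psmb11 and Rpl3l.

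Among the S6 kinases, Rps6ka5 (MSK1) had a region 1734 bp upstream in the AAV-Cre list (427 bp, fold 2.30, q = 0.057) and 3751 bp upstream in the AAV-GFP list. Rps6ka1 (RSK1) and Rps6kl1 had AAV-Cre regions at 7454 and 11794 bp. Rps6kb2, which encodes S6 kinase 2, lay 10799 bp from a region over the start of Carns1 (2921 bp, fold 8.43), marked in both lists. Rps19bp1 had a region 2402 bp upstream (350 bp, fold 2.30, q = 0.057). The pseudogene-named entries Rpl9-ps6 and Rpl9-ps1 had AAV-Cre regions at 2587 and 3415 bp, the latter over the start of the chemokine gene Ccl3, and the placement of reads among such near-identical copies is uncertain.

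Between the viruses, 31 members had a region within 15 kb in both lists, 72 in neither and 0 in the AAV-GFP list only. The 0 allows a share of up to 2.85%, and nothing particular to the members is read from it. In the AAV-Cre list only, 28 members had a region (21.4%, interval 15.2 to 29.2), against 15.3% of all genes. The background lay at the lower edge of the interval but inside it. With regions at a q-value of 0.05 or lower it lay below the interval, at 19.9% against 30.5% of members (interval 23.3 to 38.9). At 0.01 or lower it lay inside again, at 19.97% against 25.95% of members (interval 19.2 to 34.1). At 1 kb, 5 members were marked in the AAV-Cre list only (3.82%, interval 1.64 to 8.62), against 7.81% of all genes. The 28 members had AAV-GFP regions at 15012 to 339538 bp, and all 28 had an AAV-Cre region within 15 kb at q = 0.05 or lower. For Rpl18 the split came from the window edge, because its AAV-Cre region at Car11 lay at 14622 bp and an overlapping AAV-GFP region at 15012 bp. For the other 27 no AAV-Cre region within 15 kb overlapped an AAV-GFP region. This largely follows from their selection, since only a region across the 15 kb edge could overlap one, so nothing is read from it. An AAV-Cre region was closer than an AAV-GFP region for 124 of 131 members (94.7%). Among all genes 2350 had equal distances in both lists, mostly with the start inside a region of each, and an AAV-Cre region was closer for 86.9% of the rest.

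The 131 distinct AAV-Cre regions within 15 kb of members resembled their list as a whole, with a median width of 776 bp, a median fold of 2.99 and 90.1% at a q-value of 0.05 or lower. The 70 AAV-GFP regions had a median width of 265 bp, a median fold of 2.47 and 47.1% at that q-value. Of the AAV-GFP regions 94.3% overlapped an AAV-Cre region, and of the AAV-Cre regions 29.8% overlapped an AAV-GFP region, against 86.3% and 24.1% over all regions of the 2 lists.

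The window of 15 kb cut through a continuous range of distances. Just inside it in the AAV-Cre list lay Rpl41 (14111 bp), Psma2 (14261 bp) and Rpl18 (14622 bp), and just outside Rps24 (15023 bp), Psmc3ip (15263 bp), Psmb6 (15264 bp), Psma5 (16875 bp) and Rps12 (17180 bp). The members farthest from an AAV-Cre region were Rpl10l, Rpl15 (770728 bp), Psma8, Rpl9 (311963 bp) and Rpl36a-ps1 (280239 bp). For Rpl15 and Rpl10l the AAV-GFP region was closer, at 102266 and 628101 bp.

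Pathway genes outside the name rule were counted in the same way. Of 7 ribosomal genes with other names, such as Rpsa and Rplp1, none had a region within 1 kb, and 4 (AAV-Cre) and 3 (AAV-GFP) had one within 15 kb. Of 31 ribosome biogenesis and translation genes, 12 and 4 had one within 15 kb, and Eef1a2 alone within 1 kb. Eef1a2, the neuronal and muscle form of elongation factor 1A, had its start inside a region in both lists (5997 bp and fold 4.94 in the AAV-Cre list). Of 19 proteasome regulator and ubiquitin genes, 4 and 1 had a region within 15 kb, and Psmf1, a proteasome inhibitor, had its start inside an AAV-Cre region of 1167 bp (fold 3.43), with the nearest AAV-GFP region 35306 bp away.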

How the data were processed

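H3K27-me3 ChIP-seq was carried out with 8 libraries, 2 H3K27-me3 and 2 input per virus. The authors aligned reads to mm10 with BWA 0.7.13, filtered them with SAMtools 1.2 and Picard 1.126, called peaks with MACS against pooled input and deposited 1 narrowPeak list per virus, of peaks that overlapped across replicates. The deposited values are the fold enrichment (a ratio to background) and the −log10 p-value and −log10 q-value of each region. Read counts are not in the lists, so depth is unknown.

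Distances were computed in Python 3.11.15 (pandas 2.3.3, numpy 2.4.6). They ran from the edge of a region to the nearest start of any protein-coding transcript of the gene (GENCODE vM21 basic). The principal start (APPRIS) was used for base composition, profiles and locus maps. Wilson 95% intervals were computed for the shares of genes with a region near a start. The distance code was tested on simulated regions. Promoters came from RefSeq (GRCm38.p6). Members, lists and windows were chosen with earlier results of these data known, and the pyrimidine search was added later. Genes were named by fixed rules: a region within 1 kb, the 30 shortest distances, those beside 15 kb, the 5 farthest, paralogs and kinases; 1 gene under these rules is not reported here. Psmb5, Rps2, Rpl22, Rpl28, Rpl18, Rpl41 and Psma2 were named after their values were seen. Members on X were left out (7 names). Alternatives were other windows, q-value limits, equal region numbers, start definitions and member lists.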

Additional observations from a re-analysis of the deposited data

How the results depend on the processing

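Of 5 shares recomputed under 11 alternatives each, 37 values moved by less than their counting interval and 18 moved further. None of these alternatives brought a member share at 1 kb up to that of all genes. With a 5 kb window in place of 15 kb the share of members was 15.3% (AAV-Cre), 6.11% (AAV-GFP) and 9.16% (AAV-Cre only), against 31.1%, 21.25% and 10.5% of all genes. With 50 kb it was 71.8% and 52.7%, against 63.9% and 48.3%, as fewer or more regions then fall inside by construction. A q-value of 0.05 or lower gave 14.5% of members within 15 kb in the AAV-GFP list, against 22.3% of all genes, and 30.5% in the AAV-Cre list only, against 19.9%. Both backgrounds then lay outside the members' intervals, unlike with all regions. A q-value of 0.01 or lower gave 14.5% in the AAV-GFP list, against 20.1%, and 25.95% in the AAV-Cre list only, against 19.97%. Both backgrounds lay inside the members' intervals at that limit. With the same number of top regions per list the AAV-Cre only share was 14.5%, against 10.3% of all genes. Within 1 kb the AAV-GFP share was 0% with a 0.5 kb window, with either q-value limit, and without the paralogs, kinases and Rps19bp1. Without those the AAV-Cre share within 1 kb was 1.83%. Chosen after seeing the data, leaving out the pseudogene names and Psmc3ip as well gave 1.96% and 0%, and regions of at least 300 bp gave 15.3% (AAV-GFP) and 29.8% (AAV-Cre only) within 15 kb, against 20.8% and 22.3% of all genes, the latter just below the members' interval. Beyond the windows, the cause of these shifts was not tested. Leaving out each replicate could not be run, since 1 merged list per virus was used. No paired analysis was possible because the replicates of each virus are merged and no result comes from a test.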
